A study of Mus musculus with 5 samples.

Results

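The genes of the distal convoluted tubule and the WNK kinase pathway were measured in mouse kidney under diosmetin and under vehicle. They were chosen by name: Slc12a3, Wnk1, Wnk4, Stk39, Klhl3, Trpm6, Trpv5, Calb1, Pvalb and Slc8a1, which are 10 of the 21878 genes in the deposited table. Kidneys came from NZB/NZW F1 mice, a cross of NZB mothers with NZW fathers that is prone to a lupus-like disease with nephritis, and both groups share this background. One group (3 libraries) was given the plant flavone diosmetin at 50 mg/kg, injected intraperitoneally on alternate days over 6 weeks, and the other (2 libraries) was given vehicle on that schedule. The labels give neither the age nor the sex of the treated mice, and do not say that each library came from a separate animal, so p-values reflect only the spread among these libraries, part of which may be technical. The unit is FPKM (fragments per kilobase of transcript and per M fragments of the library), from whole-kidney RNA depleted of ribosomal RNA.

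The distal convoluted tubule is a short nephron segment just beyond the macula densa that fine-tunes the reabsorption of sodium chloride, magnesium and calcium. Sodium chloride enters its cells through the thiazide-sensitive cotransporter NCC (Slc12a3). WNK kinases, which sense intracellular chloride and potassium status, phosphorylate the kinase SPAK (Stk39), which phosphorylates and activates NCC, and the adaptor KLHL3 marks WNK kinases for degradation by a cullin ubiquitin ligase. The early part of the mouse segment carries parvalbumin and the magnesium channel TRPM6, and the late part and the connecting tubule carry the calcium route of TRPV5, calbindin-D28k and the sodium/calcium exchanger NCX1 (Slc8a1). In people, variants of several of these genes cause salt-wasting with low magnesium, or hypertension with high potassium.

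Promoters of a pair of transport genes and a pair of kinases are shown as background. Whether they bear on the differences between the groups was not tested. RefSeq promoter windows of GRCm38.p6 were found for 9 of the 10 genes, and Calb1 is named only. Each line gives the 250 bases before the annotated start used for that window, 5′ to 3′ on the gene's strand. That start need not be the edge of the gene span given below. The windows of Trpv5, Klhl3 and Trpm6 and a Pvalb window lie wholly inside it. Those of Slc12a3, Wnk1, Wnk4 and Stk39 run partly into it. Capitals mark the letters TATAAA (the TATA box) or GGGCGG (the GC box that SP factors bind) on either strand.
Slc12a3, chr8:94328958-94329207, plus strand: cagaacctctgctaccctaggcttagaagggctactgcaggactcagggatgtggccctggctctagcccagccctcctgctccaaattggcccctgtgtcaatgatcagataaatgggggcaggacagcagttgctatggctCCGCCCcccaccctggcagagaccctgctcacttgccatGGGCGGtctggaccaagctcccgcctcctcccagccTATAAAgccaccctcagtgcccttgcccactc
Trpv5, chr6:41680724-41680973, minus strand: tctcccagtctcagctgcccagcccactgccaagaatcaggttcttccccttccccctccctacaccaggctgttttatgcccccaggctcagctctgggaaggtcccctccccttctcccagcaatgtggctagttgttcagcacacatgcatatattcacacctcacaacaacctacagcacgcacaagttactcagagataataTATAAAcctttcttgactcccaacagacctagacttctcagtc
Wnk4, chr11:101260317-101260566, plus strand: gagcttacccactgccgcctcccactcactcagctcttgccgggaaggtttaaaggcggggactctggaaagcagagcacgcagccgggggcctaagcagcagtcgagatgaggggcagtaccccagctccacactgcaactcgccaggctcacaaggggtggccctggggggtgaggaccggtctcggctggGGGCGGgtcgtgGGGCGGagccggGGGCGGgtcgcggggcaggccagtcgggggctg
Stk39, chr2:68471982-68472231, minus strand: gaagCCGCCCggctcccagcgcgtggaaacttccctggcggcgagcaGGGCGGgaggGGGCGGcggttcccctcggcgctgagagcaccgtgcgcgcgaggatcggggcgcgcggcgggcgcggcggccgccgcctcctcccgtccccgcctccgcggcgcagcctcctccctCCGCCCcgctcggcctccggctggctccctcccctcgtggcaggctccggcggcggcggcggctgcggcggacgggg

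The transport genes Slc12a3 and Trpv5 held a TATA box that began 32 and 43 bases before the start, and they were the 2 of 9 members that held one, against 13.0% of 27025 mouse promoters of this length. GC boxes were found in 4 of the 9 members, Slc12a3, Wnk1, Wnk4 and Stk39, against 32.9% of all promoters. Wnk1 held 4 of them, Wnk4 held 3 and Stk39 held 4. The kinase promoters were also rich in CpG, with 26 CpG dinucleotides in Wnk1, 17 in Wnk4 and 43 in Stk39, where the median promoter had 6. Slc12a3 had 3 and Trpv5 had 1. No window of the 9 genes, of which Pvalb has a pair and the others 1 each, held AAGGTCA (estrogen-related receptors, 4.05% of all promoters), TGTTCT (the core of steroid receptor sites, 16.2%) or GTTAAT (part of the HNF1 site, 6.52%), searched on both strands. These are matches of letters and say nothing of binding.

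All 10 genes passed the filter on low values, a mean of at least 0.5 FPKM over the 5 libraries, as did 13290 genes in all. The spacing of the lowest FPKM values put the depth at about 47.1, 43.2 and 45.2 M fragments in diosmetin replicates 1, 2 and 3, against 38.4 and 49.1 M in vehicle replicates 1 and 2. Trpv5, the lowest of the 10 in FPKM, then rested on an estimated 1151 to 1810.1 fragments per library, and Slc12a3 on 82109.5 to 111047. Counting error was not separated from the spread between libraries. Wnk4 and Slc8a1 have annotated antisense genes that share exon positions with them, and whether counting used strand is not given in the sources used here.

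Markers of the segment were present in every library. Emx1, a homeobox gene of the distal tubule, stood at 39.5, 44.8 and 40.6 FPKM under diosmetin and at 39.4 and 32.2 FPKM under vehicle. Sall3, a transcription factor of the same segment, was at 3.65, 4.57 and 4.60 FPKM under diosmetin and at 3.57 and 3.25 FPKM under vehicle. Pvalb is also made by skeletal muscle and Slc8a1 by heart. The 6 skeletal muscle markers summed to between 1.61 and 1.78 FPKM under diosmetin and between 1.52 and 1.67 FPKM under vehicle, with Acta1 at 0 in diosmetin replicate 1 and vehicle replicate 1. The 5 heart muscle markers summed to between 2.70 and 4.49 FPKM under diosmetin and between 2.20 and 4.01 FPKM under vehicle.

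Every one of the 10 genes had a higher mean under diosmetin, and none passed the test over all genes. The difference of log2(FPKM + 1), diosmetin minus vehicle, ran from 0.15 for Klhl3 to 0.45 for Calb1, with a median of 0.28, against a median of 0.04 over all tested genes, of which 63.9% were higher. Means were 11.2% to 38.3% above those under vehicle. With limma, 0 of the 10 genes and 0 of 13290 genes (0% of those tested) had an adjusted p under 0.05, and the members' adjusted p was 0.738, or 0.754 for Klhl3. At an unadjusted p under 0.05 stood 5 of the 10 (Trpv5, Wnk4, Stk39, Wnk1 and Slc8a1), all higher, where 4.68% of all genes tested were higher at that level and 6.37% stood there in either direction. Groups lay apart without overlap for 6 of the 10, the same 5 and Trpm6, against 18.3% of all genes with every diosmetin library above both vehicle libraries and 6.17% the other way. Under median-of-ratios scaling of the libraries, 2 of the 10 (Stk39 and Trpv5) stood at an unadjusted p under 0.05, and over all genes the split at that level was 388 higher and 380 lower, against 622 higher and 225 lower as deposited.

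**Figure D1:**
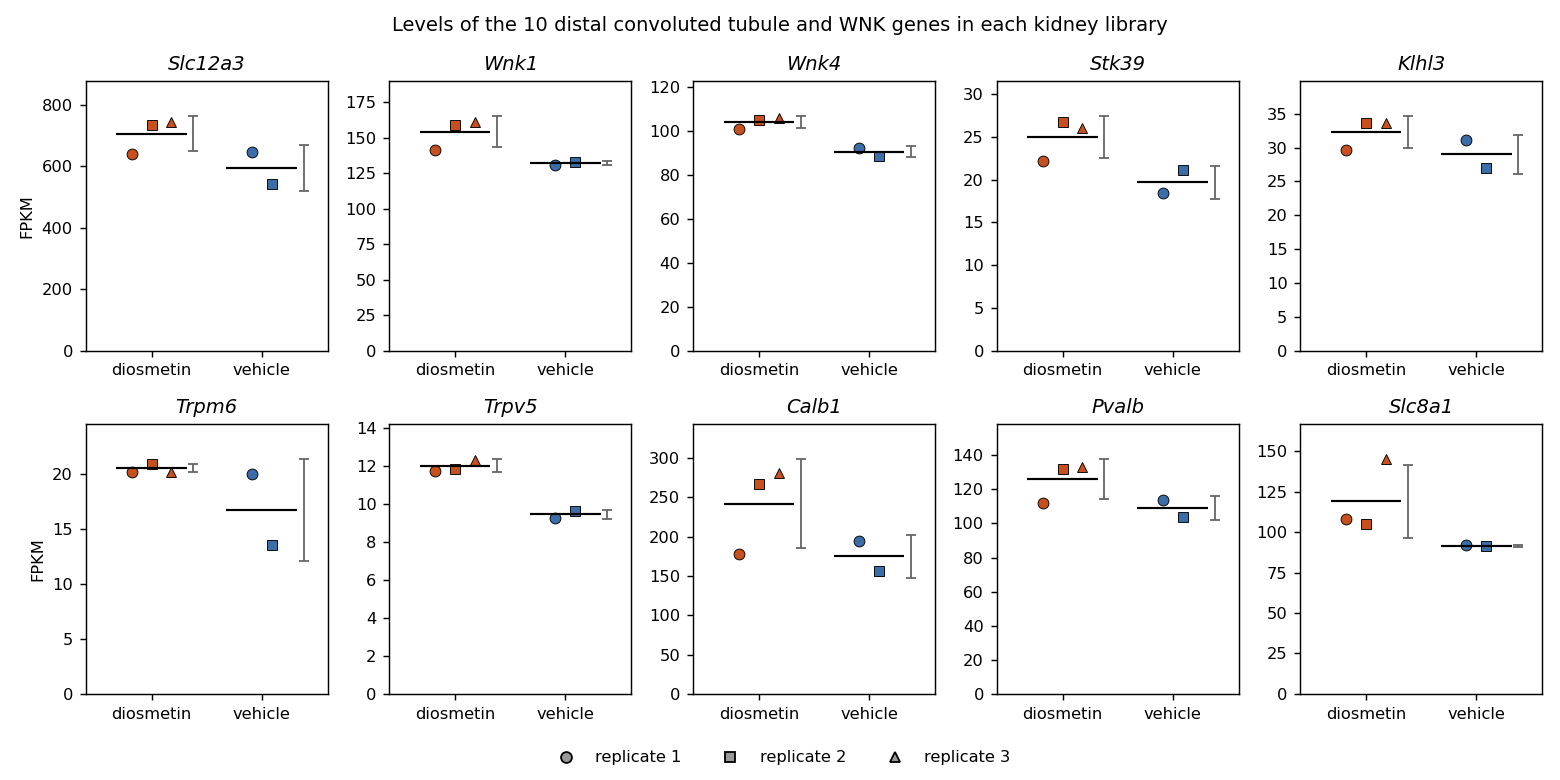
FPKM of each gene in each library, with diosmetin (3 libraries) left of vehicle (2 libraries) and every axis starting at 0. Symbols mark the replicates, black lines the group means and grey bars the mean ± SD; Trpv5 and Wnk4 show groups that lie apart, while Calb1 and Slc12a3 have diosmetin replicate 1 among the vehicle values.

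The cotransporter itself was the most abundant of the 10. Slc12a3 (GeneID 20497, chromosome 8, 94329109 to 94366222, GRCm38.p6) was at 641, 733 and 745 FPKM in diosmetin replicates 1, 2 and 3, against 648 and 542 FPKM in vehicle replicates 1 and 2. Diosmetin replicates 2 and 3 were the highest, and diosmetin replicate 1 lay 1.16% below vehicle replicate 1, so the groups overlapped. The mean was 706 ± 57.1 FPKM under diosmetin (SD, n = 3) and 595 ± 75.1 FPKM under vehicle (SD, n = 2), a log2 difference of 0.25 ± 0.13 (SE), which came to 0.12 when vehicle replicate 2 was left out and to 0.38 when vehicle replicate 1 was. This difference was within the spread of the libraries by the exact two-sided permutation test (p = 0.3), whose smallest possible p with 3 libraries against 2 is 0.1. Slc12a3 ranked 33rd of all genes by mean level and made up 44.8% to 48.0% of the summed FPKM of the 10 genes in every library.

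Wnk4 and Wnk1 varied less within each group than Slc12a3 did. Wnk4 (GeneID 69847, chromosome 11, 101260537 to 101277409), which activates NCC through SPAK, was at 101, 105 and 106 FPKM under diosmetin and at 92.3 and 88.7 FPKM under vehicle. All 3 diosmetin libraries were above both vehicle libraries, the lowest by 9.45% over the higher vehicle value. The log2 difference was 0.20 ± 0.06 (SE), with an adjusted p of 0.738 in limma and p = 0.1 in the exact permutation test, the smallest it can give.

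Wnk1 (GeneID 232341, chromosome 6, 119923969 to 120038695), the broadly expressed WNK kinase, was at 141, 159 and 161 FPKM under diosmetin and at 131 and 133 FPKM under vehicle. The groups did not overlap, and diosmetin replicate 1 lay nearest to the vehicle values. Its log2 difference was 0.22 ± 0.08 (SE; exact permutation p = 0.2). Kidney makes a short form of Wnk1 without most of the kinase domain from an internal promoter, and the table gives the gene as a whole, so the forms are not separated here.

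SPAK, the kinase that acts directly on NCC, had the largest difference of the kinases among the 10 genes. Stk39 (GeneID 53416, chromosome 2, 68210445 to 68472108) was at 22.2, 26.7 and 26.1 FPKM under diosmetin and at 18.4 and 21.1 FPKM under vehicle. Groups did not overlap, although diosmetin replicate 1 was only 5.49% above vehicle replicate 2. The log2 difference was 0.33 ± 0.10 (SE; exact permutation p = 0.2). Klhl3 (GeneID 100503085, chromosome 13, 58000226 to 58123477), the adaptor that removes WNK kinases, had the smallest difference of the 10, 0.15 ± 0.09 (log2, SE), at 29.6, 33.6 and 33.7 FPKM under diosmetin and at 31.1 and 27.0 FPKM under vehicle, with overlapping groups (exact permutation p = 0.3). Leaving out vehicle replicate 2 gave 0.05, leaving out vehicle replicate 1 gave 0.25 and median-of-ratios scaling gave 0.09.

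For the magnesium channel, 1 vehicle library stood apart. Trpm6 (GeneID 225997, chromosome 19, 18730177 to 18892521), the apical magnesium channel fused to a kinase, was at 20.2, 20.9 and 20.2 FPKM under diosmetin and at 20.0 and 13.5 FPKM under vehicle. The diosmetin libraries and vehicle replicate 1 were nearly level, with a gap of 1.29% between the groups, and vehicle replicate 2 was far below. Its log2 difference of 0.30 ± 0.15 (SE) came to 0.03 when vehicle replicate 2 was left out and to 0.57 when vehicle replicate 1 was. Pvalb (GeneID 19293, chromosome 15, 78191112 to 78206400), the cytosolic calcium buffer of the early segment, was at 112, 132 and 133 FPKM under diosmetin and at 114 and 104 FPKM under vehicle, a log2 difference of 0.20 ± 0.10 (SE) with overlapping groups (exact permutation p = 0.3).

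The calcium route held the 2 largest differences, those of Calb1 and Slc8a1. Trpv5 (GeneID 194352, chromosome 6, 41651661 to 41681224), the apical calcium entry channel, was at 11.7, 11.8 and 12.3 FPKM under diosmetin and at 9.25 and 9.61 FPKM under vehicle. Its groups were the furthest apart of the 10 relative to their spread, with the lowest diosmetin library 22.3% above the higher vehicle library. The means were 12.0 ± 0.324 FPKM (SD, n = 3) under diosmetin and 9.43 ± 0.255 FPKM (SD, n = 2) under vehicle. The log2 difference of 0.32 ± 0.07 (SE) had the smallest unadjusted limma p of the members, 0.00333, and 0.316% of all genes had a smaller one.

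Calb1 (GeneID 12307, chromosome 4, 15881264 to 15906709), the calbindin-D28k that carries calcium across the cell, was at 178, 267 and 281 FPKM under diosmetin and at 194 and 156 FPKM under vehicle. Diosmetin replicates 2 and 3 were high, and diosmetin replicate 1 lay between the vehicle libraries. The diosmetin libraries differed by up to 1.58-fold among themselves, more than for any other member, and the log2 difference was 0.45 ± 0.22 (SE; exact permutation p = 0.3), and 0.29 to 0.65 when 1 library was left out, lowest without vehicle replicate 2 and highest without diosmetin replicate 1. Slc8a1 (GeneID 20541, chromosome 17, 81373105 to 81738387), the basolateral exchanger NCX1 that extrudes calcium, was at 108, 105 and 145 FPKM under diosmetin and at 91.9 and 91.3 FPKM under vehicle. The groups did not overlap, and diosmetin replicate 3 stood above the rest. Its log2 difference was 0.36 ± 0.15 (SE; exact permutation p = 0.2), and 0.22 without diosmetin replicate 3.

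**Figure D2:**
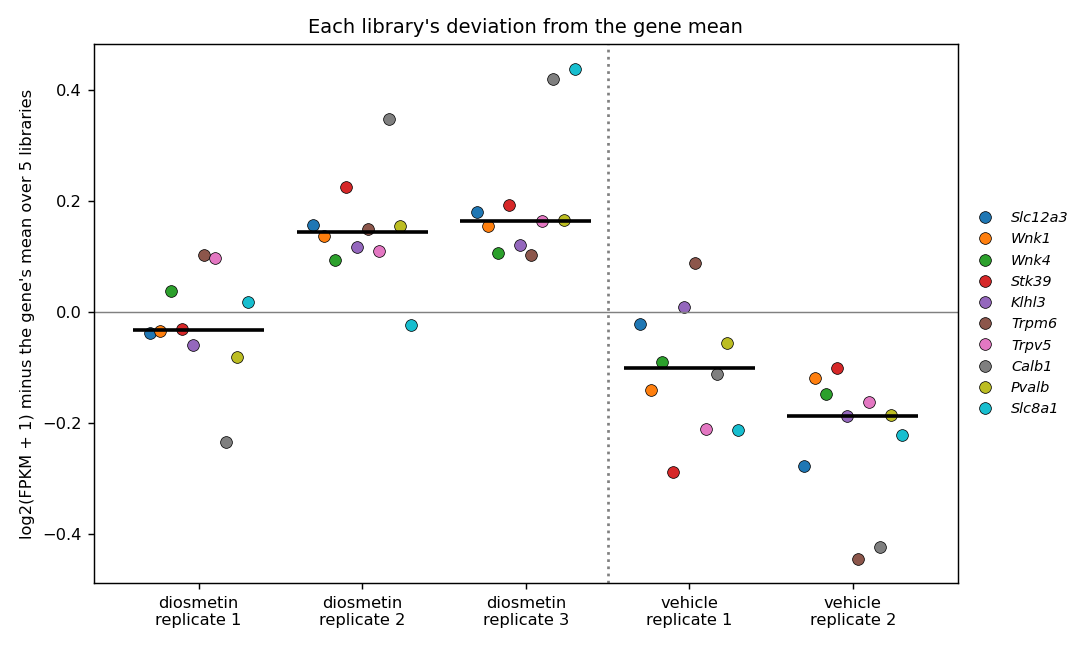
Deviation of each library from the gene's mean over the 5 libraries, on the log2(FPKM + 1) scale; each dot is 1 of the 10 genes and black lines are medians over the genes. Diosmetin replicates 2 and 3 have medians of 0.14 and 0.17 and diosmetin replicate 1 a median of -0.03, against -0.10 and -0.19 in vehicle replicates 1 and 2.

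Read across genes, diosmetin replicates 2 and 3 were above both vehicle libraries for 10 of the 10 genes, a pattern held by 32.8% of all genes tested. This pattern leaves out diosmetin replicate 1 and was drawn from these same values, so it is a description only. With all 3 diosmetin libraries the count was 6 of the 10, against 18.3% of all genes. Diosmetin replicates 2 and 3 were the 2 highest libraries for 9 of the 10, against 23.5% of all genes, and Slc8a1 was the exception. Diosmetin replicate 1 was below the higher vehicle library for 4 genes, Slc12a3, Klhl3, Calb1 and Pvalb. The lowest library was vehicle replicate 2 for 7 genes and vehicle replicate 1 for the other 3, Wnk1, Stk39 and Trpv5. How often all tested genes showed such a lowest library, or diosmetin replicate 1 below the higher vehicle library, was not counted. The 10 genes summed to 1364, 1595 and 1664 FPKM under diosmetin and to 1349.8 and 1185 FPKM under vehicle.

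**Figure D3:**
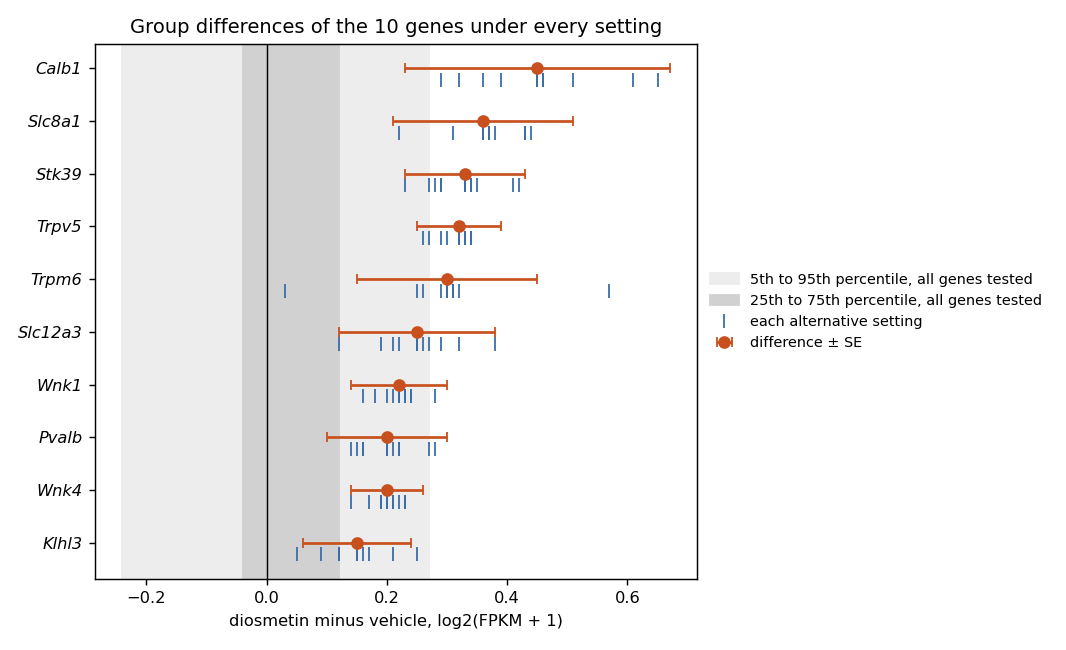
Difference of log2(FPKM + 1), diosmetin minus vehicle, for each gene (dots with SE) over the 5th to 95th and 25th to 75th percentiles of all tested genes (grey); blue ticks are the alternative settings. All ticks lie above 0, and those of Trpm6 reach from 0.03 to 0.57.

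Levels per length came in steps. By mean over the 5 libraries the order was Slc12a3 (662 FPKM), Calb1 (215), Wnk1 (145), Pvalb (119), Slc8a1 (108), Wnk4 (98.7), Klhl3 (31.0), Stk39 (22.9), Trpm6 (19.0) and Trpv5 (11.0). Slc12a3 was 2.65 to 3.61 times Calb1 in each library, and Wnk4 was 2.97 to 3.42 times Klhl3, and in both pairs the ranges did not overlap. Neighbours from Calb1 down to Wnk4 overlapped in their ranges over libraries, as did Stk39 and Trpm6. Within single libraries Calb1 was above Wnk1, and Wnk1 above Pvalb, in 5 of 5. Pvalb was above Slc8a1, Slc8a1 above Wnk4 and Stk39 above Trpm6 in 4 of 5.

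Ratios within a library do not depend on how the library was scaled, and most had overlapping groups. Wnk1 over Wnk4 was 1.40, 1.51 and 1.52 under diosmetin and 1.41 and 1.50 under vehicle. Klhl3 over Slc12a3 was the only ratio to Slc12a3 whose groups did not overlap, at 0.0462, 0.0458 and 0.0452 under diosmetin and 0.0480 and 0.0498 under vehicle. Its mean log2 ratio differed by -0.10. How often ratios of other genes to Slc12a3 lay apart was not counted, so this separation has no background to be read against. Calb1 over Slc12a3 was 0.277, 0.364 and 0.378 under diosmetin and 0.300 and 0.287 under vehicle, so that diosmetin replicates 2 and 3 were high and replicate 1 the lowest of all. Pvalb over Calb1, early over late segment, ran the other way, at 0.632, 0.494 and 0.472 under diosmetin and 0.586 and 0.669 under vehicle. Trpm6 over Trpv5 was 1.72, 1.76 and 1.64 under diosmetin and 2.16 and 1.40 under vehicle, with the vehicle libraries on either side of all others. These ratios were not tested.

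**Figure D4:**
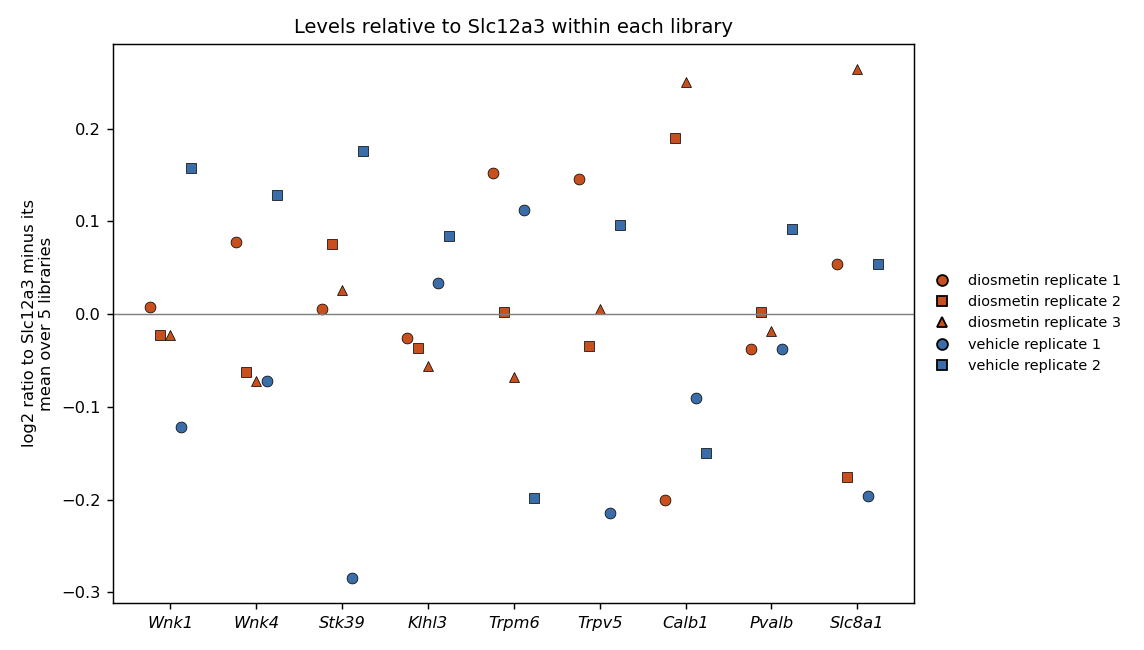
Log2 ratio of each gene to Slc12a3 within each library, as the deviation from the ratio's mean over 5 libraries (diosmetin in orange, vehicle in blue, symbols for replicates). Groups overlap for every gene but Klhl3, whose 3 diosmetin ratios lie below both vehicle ratios. Such separations were not counted over all genes.

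Close relatives of the 10 genes, listed after the values were seen, show which family member dominated whole kidney. Wnk1 and Wnk4 together made up 99.58% to 99.66% of the FPKM of the 4 WNK kinases, with Wnk2 at a mean of 0.552 FPKM and Wnk3 at 0.396 FPKM. Stk39 was 1.41 to 1.97 times its relative Oxsr1 (OSR1), and Klhl3 was 2.97 to 4.08 times Klhl2. Trpv5 was 9.76 to 13.5 times Trpv6, the other epithelial calcium channel. Trpm6 was lower than Trpm7, its ubiquitous relative, at 0.249 to 0.374 times. Slc12a3 was 1.56 to 2.38 times Slc12a1, the furosemide-sensitive cotransporter of the thick ascending limb.

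In the other genes of the pathway, grouped in 5 lists of 59 genes with 57 tested, 46 were higher and 11 lower in mean under diosmetin, where 63.9% of all genes tested were higher, the background also for each list below. None passed over all genes. At an unadjusted p under 0.05 stood 12, all higher, where 4.68% of all genes were higher at that level. The groups did not overlap for 17 higher and 1 lower, against 18.3% and 6.17% of all genes. Their median log2 difference was 0.12. Umod, Cldn16, Slc12a1 and Hsd11b2 are in these lists and also among the cell type markers below.

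Among 16 tested regulators of the WNK cascade, 14 were higher and 2 lower, with a median log2 difference of 0.08. Oxsr1, the kinase closest to SPAK, was at 14.7, 13.9 and 13.3 FPKM under diosmetin and at 13.0 and 13.2 FPKM under vehicle. Cul3, the cullin that works with KLHL3, had a log2 difference of 0.04 ± 0.07 (SE). Nr3c2, the mineralocorticoid receptor, was at 15.2 FPKM in each of the 3 diosmetin libraries and at 13.4 and 13.2 FPKM under vehicle (log2 difference 0.18 ± 0.06, SE). Hsd11b2, which shields that receptor from glucocorticoids, was at 140.3, 128 and 118 FPKM under diosmetin and at 91.2 and 110.0 FPKM under vehicle. Ppp1r1a, a phosphatase inhibitor of the distal tubule, had a log2 difference of 0.31 ± 0.11 (SE). Sgk1, a kinase induced by aldosterone and glucocorticoids, was at 101, 40.2 and 38.1 FPKM under diosmetin and at 36.2 and 42.0 FPKM under vehicle, so 1 diosmetin library was far above the other 4. That library was replicate 1, the one whose Slc12a3 and Calb1 levels lay among the vehicle values.

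On the basolateral side, 6 of 10 genes were higher and 4 lower, with a median log2 difference of 0.11. Bsnd, which encodes barttin, a protein of basolateral salt transport, had a log2 difference of 0.33 ± 0.10 (SE). Kcnj10, the potassium channel Kir4.1 that sets the chloride level WNK kinases sense, was at 39.1, 53.3 and 45.7 FPKM under diosmetin and at 38.6 and 34.7 FPKM under vehicle. Its partner Kcnj16 went the other way, with a log2 difference of -0.14 ± 0.10 (SE). Kcnj10 and Bsnd each had groups that did not overlap.

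Magnesium genes were higher for 9 of 11 and lower for 2, with a median of 0.10. Slc41a1, a magnesium transporter, was at 11.2, 10.5 and 9.89 FPKM under diosmetin and at 7.96 and 8.72 FPKM under vehicle. Cnnm2, a basolateral protein of magnesium transport, was at 16.6, 19.7 and 18.9 FPKM under diosmetin and at 15.6 and 13.9 FPKM under vehicle. Egf, whose product stimulates TRPM6, was level at 846, 848 and 855 FPKM under diosmetin and at 792 and 866 FPKM under vehicle.

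Calcium genes were higher for 7 of 10 and lower for 3, with a median of 0.11. Klk1, tissue kallikrein of the connecting tubule, had a log2 difference of 0.32 ± 0.12 (SE), and its close paralogs could have shared fragments with it. S100g, the smaller calbindin-D9k, overlapped widely, at a log2 difference of 0.10 ± 0.27 (SE), and Atp2b1, a plasma membrane calcium pump, stood at 0.02 ± 0.08 (SE). Among 44 tested genes of endocrine-regulated calcium reabsorption in the deposited pathway annotation, which hold Calb1, Trpv5 and Slc8a1, 30 were higher and 14 lower, with a median of 0.06.

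All 10 transcription factors of the distal nephron were higher in mean, with a median log2 difference of 0.23. Groups lay apart for 5 of the 10, all higher, against 18.3% of all genes tested. Tfap2a and Tfap2b, AP-2 factors, stood at 0.35 ± 0.10 and 0.25 ± 0.07 (SE). Tfap2b was at 14.3, 15.7 and 15.1 FPKM under diosmetin and at 12.2 and 12.9 FPKM under vehicle, with no overlap.

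**Figure D5:**
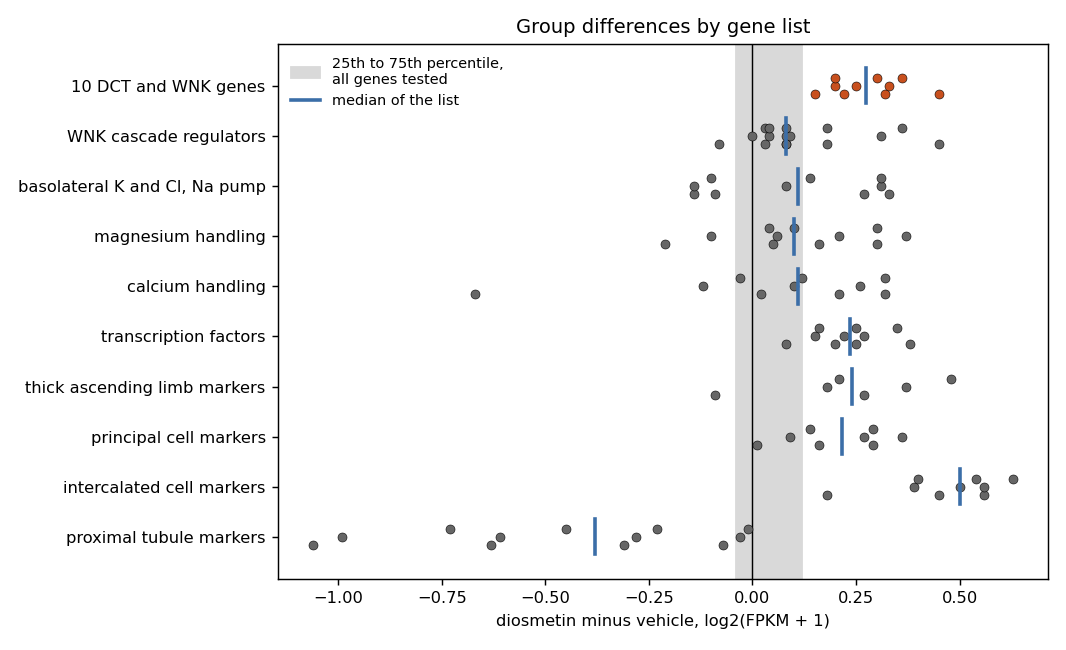
Difference of log2(FPKM + 1), diosmetin minus vehicle, for the tested genes of each list (dots), with list medians (blue) over the 25th to 75th percentile of all tested genes (grey). The 10 genes have a median of 0.28, between those of intercalated cell markers (0.50) and thick ascending limb markers (0.24), while proximal tubule markers lie below 0.

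Markers of other cell types differed alongside these genes. All 12 proximal tubule markers had a lower mean under diosmetin, with a median log2 difference of -0.38. They summed to 8089.6, 6253 and 8628 FPKM under diosmetin and to 11017 and 11000.0 FPKM under vehicle. Kap was the largest part of that sum in every library. It stood at 2551, 2808 and 4751 FPKM under diosmetin and at 4708 and 6153 FPKM under vehicle, with overlapping groups. Groups lay apart for 3 of the 12, all lower, against 6.17% of all genes tested. All 9 intercalated cell markers were higher, with a median of 0.50, and summed to 325 to 351 FPKM under diosmetin and 236 to 259 FPKM under vehicle. Principal cell markers were higher for 8 of 8 (377 to 394 FPKM under diosmetin, 289.7 to 359 FPKM under vehicle) and thick ascending limb markers for 5 of 6 (1670.2 to 2516 FPKM under diosmetin, 1564 to 1889 FPKM under vehicle). Groups lay apart for 9 of 9 intercalated, 4 of 8 principal and 2 of 6 thick ascending limb markers, all higher. Over all genes tested that share was 18.3%. The same numbers, 9, 4 and 2, stood at an unadjusted p under 0.05 in limma, all higher, against 4.68% of all genes. No marker of these 4 lists was at 0 in any library. Macrophage markers summed to 108 to 127 FPKM under diosmetin, and to 71.7 and 157 FPKM in vehicle replicates 1 and 2. All 6 podocyte markers had a lower mean under diosmetin, summing to 154 to 176 FPKM there and to 146 and 277 FPKM in vehicle replicates 1 and 2, and the 7 endothelial markers summed to 159 to 194 FPKM under diosmetin and to 156 and 205 FPKM in the same vehicle libraries. Vehicle replicate 2, the highest library for these 3 sums, was the lowest for 7 of the 10 genes. The part of these shifts in the members' differences was not tested, and in whole-kidney RNA fewer cells of a type and less RNA per cell cannot be told apart.

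Outside all the lists, the genes whose profile over the 5 libraries was most like that of Slc12a3 were Elk1, Dnaja4, Arhgap8, Rnf113a2, Ankrd39 and Eva1a. Likeness was the root-mean-square difference between centred log2(FPKM + 1) profiles, which was 0.0206 for Elk1 and 0.0405 for Eva1a among 12160 genes with a mean of at least 1 FPKM. On the same measure Pvalb (0.0480) and Klhl3 (0.0538) were the closest members. Calb1 (0.182) was the furthest, beyond the median of 0.176 over 12280 genes. The measure also counts the size of the swings between libraries. Calb1 put the 5 libraries in the same order as Slc12a3 but varied more. The SD of its log2(FPKM + 1) over them was 0.371, against 0.185 for Slc12a3.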

How the data were processed

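The authors deposited 1 table of FPKM values for 5 kidney libraries, with gene annotation. Per the labels' protocols, total RNA with an integrity number of at least 7 was depleted of ribosomal RNA and made into stranded paired-end libraries. Per the submitters' processing notes the build was GRCm38, and the sources used here do not give the aligner, counter or annotation release. Columns were matched to samples by the code in the labels and grouped by the treatment label, and no 2 libraries were identical.

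Genes with a mean of at least 0.5 FPKM (13290) were tested on log2(FPKM + 1), which understates changes of low genes, with limma (lmFit and eBayes with trend, 3 residual degrees of freedom, two-sided, Benjamini-Hochberg at 0.05). An exact permutation test, two-sided on the absolute difference of means over the 10 ways of dividing the libraries, was run for single genes. The procedure was tested on simulated data, in which every change was larger than the members' differences. Recovery of changes as small as theirs was therefore not tested. Depth was estimated from FPKM steps of genes with a mean under 0.1, using GENCODE lengths: 56.8% to 61.5% of values lay within 0.1 of a whole fragment. No count test was run.

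The members and lists were chosen with earlier results of these data known. Named pathway genes follow a written rule (10 always, and the 8 with the smallest p); Kcnj16 and the markers were named after their values were seen. Paralogs, motifs and the patterns read across libraries were also chosen after. Alternatives were another pseudocount, 2 other filters, 3 scalings, 2 variance models and leaving out each library. R 4.3.3, limma 3.58.1, Python 3.11.15, numpy 2.4.6, pandas 2.3.3 and scipy 1.17.1 were used.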

Additional observations from a re-analysis of the deposited data

How the results depend on the processing

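Under the 13 alternatives run, each of the 10 genes kept a positive difference. In the alternatives with both vehicle libraries, none of the 10 had an adjusted p under 0.05 in limma. The lowest adjusted p of a member there was 0.51, without diosmetin replicate 1. No gene of the table passed under any of these alternatives either. The members' median log2 difference, 0.28 as deposited, was 0.22 with median-of-ratios scaling, and 0.20 to 0.31 when 1 library was left out. At an unadjusted p under 0.05 in limma stood 5 members as deposited, against 6.37% of all genes tested in either direction. With median-of-ratios scaling the number was 2, against 5.78% of all genes. Without diosmetin replicate 1 it was 7, against 8.98%. Without diosmetin replicate 2 it was 3, against 2.9%, and without diosmetin replicate 3 it was 2, against 5.12%. The other alternatives with both vehicle libraries gave 4 or 5 members, against 6.05% to 6.64% of all genes. Trpv5 was among them each time. Without a vehicle library the lone one left is assumed to vary like the diosmetin libraries, so no p-values or counts are given for those settings. Leaving out vehicle replicate 2 brought Slc12a3 to 0.12, Klhl3 to 0.05 and Calb1 to 0.29; the cause was not tested. With 3 libraries against 2, their number limits precision, and how much counting error adds was not measured. No paired analysis was possible because the labels number the kidneys in one run across both groups; the replicate numbers used here follow sample order within a group and pair no libraries.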
